A study of Rattus norvegicus with 10 samples.

Results

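Interferon-induced and MHC class I genes were examined in lacrimal glands of rats, whose watery secretion makes up most of the tear fluid. The genes were Irf1, Irf7, Mx2, Ifitm3, Slfn5, Psmb8, Psmb9, Tap1, B2m and RT1-S3, taken by their symbol in the array's platform annotation. They had 16 probe sets, of 8740 on the array that were not array controls, and made up 10 of 4736 genes with a probe set of their own. Several of the genes were chosen because they were higher in denervated glands of these same samples. Their differences between denervated and control glands are therefore given as a description, with no test.

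Total RNA of 10 glands was hybridised to Affymetrix rat arrays, 1 array per gland. Denervated glands (n = 5) were taken 7 days after the greater superficial petrosal nerve had been cut. This nerve carries the parasympathetic supply of the lacrimal gland. The control glands (n = 5) were 3 contralateral glands, taken 7 days after the nerve was cut, 1 sham-operated gland, also taken after 7 days, and 1 unoperated gland. The labels give no strain, age or sex, and they do not say that the glands came from separate animals, so any p-value covers only how these samples vary, part of which may be technical. For 3 control glands the labels conflict: by title they are contralateral, by description from the operated side. The title was used.

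Interferons are secreted proteins of antiviral defence that signal through cell surface receptors, Janus kinases and STAT proteins. Their target genes carry an interferon-stimulated response element (ISRE), bound by interferon regulatory factors, or a gamma-activated site (GAS). Among these targets are antiviral proteins and the machinery of MHC class I presentation. In that pathway the immunoproteasome cuts cytosolic proteins, the TAP transporter carries the peptides into the endoplasmic reticulum, and class I heavy chains paired with beta-2-microglobulin show them at the cell surface.

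Several of the genes are neighbours in the RefSeq annotation of the rat genome, build GRCr8. Psmb8 (chr20:4654068-4657049), Tap1 (chr20:4658171-4668543) and Psmb9 (chr20:4668952-4674421) follow each other, and RT1-S3 (chr20:2675463-2680229) lies on the same chromosome. Ifitm3 (chr1:205540649-205541758) and Irf7 (chr1:205796956-205800543) share another chromosome. Slfn5 (chr10:68378440-68392515) and Irf1 (chr10:38417935-38424946) lie on chromosome 10, Mx2 (chr11:50375101-50399373) on chromosome 11 and B2m (chr3:129549236-129555354) on chromosome 3.

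RefSeq promoter windows of build GRCr8, running from 250 bases before to 50 bases after an annotated transcript start, were matched by symbol for 9 of the 10 genes. Mx2 was not among them. The ISRE letters, GAAA, any 2 bases and GAAA again, searched on both strands, stood in the windows of 7 of these 9 genes (77.8%), against 3.92% of all 33469 windows, 27.5% of 40 other interferon and class I pathway genes and 9.09% of 22 constitutive proteasome genes. A match is a description of the letters and was not tested as a binding site. The 7 matches are shown because they are what most of the genes share in sequence. Each is printed on the strand of its gene with 10 bases on each side, and the capitals mark the ISRE letters or their reverse complement:
Irf7, chr1:205800073-205800102 (-): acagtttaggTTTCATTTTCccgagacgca
Ifitm3, chr1:205541783-205541812 (-): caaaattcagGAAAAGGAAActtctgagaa
Slfn5, chr10:68378605-68378634 (+): gagctttaatTTTCTGTTTCaatgcctcca
Psmb8, chr20:4657016-4657045 (-): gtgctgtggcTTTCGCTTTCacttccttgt
Tap1, chr20:4668645-4668674 (-): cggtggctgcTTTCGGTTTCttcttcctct
B2m, chr3:129549170-129549199 (+): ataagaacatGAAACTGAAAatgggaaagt
RT1-S3, chr20:2675406-2675435 (+): ctcctgctgcTTTCTCTTTCataaagacac

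The first base of the ISRE letters lay 4 bases before the transcript start in Psmb8, 44 in Ifitm3, 69 in Irf7, 112 in RT1-S3, 121 in Tap1 and 150 in B2m. In Slfn5 it lay 5 bases after the start of the transcript used. The matches of Irf7, Psmb8 and Slfn5 lie inside the gene's annotated span given above, since another transcript of each starts further upstream. Irf1 and Psmb9 held no such letters in their windows. The GAS letters TTCNNNGAA stood in 3 of the 9 windows, those of Irf1, Ifitm3 and Psmb8 (33.3%), against 8.87% of all windows and 8 of the 40 other pathway genes. The letters of a kappa B element (GGGA, any base and TTTCC), which NF-kappa B proteins bind, stood in the windows of Tap1 and B2m (22.2%), against 0.362% of all windows and 2.5% of the 40 other pathway genes. These 2 genes had both an ISRE and a kappa B match, so the sequence before the gene is shown for each, with both matches in capitals. For Tap1 the ISRE letters come first, and 44 bases of the window also belong to that of Psmb9, which is read the other way. For B2m the kappa B letters follow the ISRE letters closely:
Tap1, chr20:4668544-4668793 (-): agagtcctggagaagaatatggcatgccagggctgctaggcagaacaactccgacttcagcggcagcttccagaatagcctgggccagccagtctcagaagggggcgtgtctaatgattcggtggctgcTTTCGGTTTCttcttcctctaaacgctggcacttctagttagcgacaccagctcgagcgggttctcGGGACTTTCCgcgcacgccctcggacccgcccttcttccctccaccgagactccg
B2m, chr3:129549080-129549235 (+): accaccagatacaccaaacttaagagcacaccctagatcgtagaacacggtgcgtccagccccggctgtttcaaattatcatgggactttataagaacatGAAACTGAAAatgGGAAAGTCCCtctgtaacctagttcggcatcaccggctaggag

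Values are log2 of the deposited probe set intensity, with intensities under 156.2 set to that floor (log2 of 7.29). The 10 arrays fell into 3 sets when clustered by their correlation, a division made after the data were seen. Set A held denervated 1, contralateral 1 and sham, set B held denervated 2 and 5, and set C held denervated 3 and 4, contralateral 2 and 3 and the unoperated gland. Correlations across probe sets ran from 0.847 to 0.912 between arrays of one set and from 0.715 to 0.876 between sets. Scgb2a1, a secretoglobin counted here among lacrimal markers, was at the floor in the 5 glands of sets A and B and had log2 intensities of 16.18 to 18.46 in set C. Set A glands also had a lower log2 3′/5′ ratio of the GAPDH control probe sets (-0.64 to -0.18, against 0.01 to 0.35 in the other glands), a sign of RNA quality or labelling. For beta-actin the ratio did not set them apart (0.61 to 0.95, against 0.19 to 1.14). Values for the interferon and class I genes are therefore given by set as well.

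Irf1, a transcription factor induced by interferon gamma, had log2 intensities of 10.92, 12.17, 12.80, 13.66 and 12.03 in denervated 1 to 5, against 11.81, 11.99 and 12.01 in contralateral 1 to 3, 12.58 in the unoperated and 11.48 in the sham gland. The groups overlapped, with both the lowest and the highest gland among the denervated ones. Mean log2 intensity was 12.32 ± 1.01 in denervated and 11.97 ± 0.40 in control glands (SD, n = 5 each), a difference of 0.34 (SE 0.41). A second Irf1 probe set differed by 0.10 (SE 0.40).

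Irf7, the interferon-induced factor that amplifies type I interferon production, had log2 intensities of 8.85, 12.61, 12.56, 10.72 and 11.71 in denervated 1 to 5, against 8.79, 8.58 and 8.90 in contralateral 1 to 3, 10.24 in the unoperated and 9.12 in the sham gland. Denervated 2 to 5 lay above every control gland, and denervated 1 lay among the controls. The mean was 11.29 ± 1.56 in denervated and 9.13 ± 0.65 in control glands (SD, n = 5 each), a 4.49-fold higher level on the log2 mean (difference 2.17, SE 0.64). The other Irf7 probe set was dimmer over all 10 glands but brighter in control glands (mean 9.92 against 9.13), and it did not show this difference. Its log2 values were 7.29 (the floor), 11.25, 11.57, 9.70 and 8.14 in denervated 1 to 5 and 9.19 to 10.67 in control glands. Its difference was -0.33 (SE 0.75). The probe sets for this gene thus disagreed in sign.

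Mx2, a dynamin-like GTPase with antiviral activity, had log2 intensities of 9.49, 11.04, 11.35, 7.29 (the floor) and 11.23 in denervated 1 to 5, against 8.35, 7.45 and 7.29 (the floor) in contralateral 1 to 3, 7.94 in the unoperated and 8.51 in the sham gland. Every denervated gland but denervated 4 lay above all 5 control glands. The means were 10.08 ± 1.73 and 7.91 ± 0.54 in denervated and control glands (SD, n = 5 each), a difference of 2.17 (SE 0.73). Values at the floor have no order, so this difference depends on where the floor was set: it was 2.31 with a floor at the 10th percentile and 2.00 at the 30th.

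Ifitm3, a membrane protein that restricts the entry of enveloped viruses, had log2 intensities of 11.94, 15.67, 14.97, 14.69 and 14.91 in denervated 1 to 5, against 12.29, 13.81 and 13.21 in contralateral 1 to 3, 13.22 in the unoperated and 13.01 in the sham gland. Denervated 1 was the lowest of the 10 glands, while denervated 2 to 5 were the highest 4. Mean log2 intensity was 14.44 ± 1.44 in denervated and 13.11 ± 0.55 in control glands (SD, n = 5 each), a difference of 1.33 (SE 0.54).

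Slfn5, a member of the interferon-inducible Schlafen family, had log2 intensities of 11.22, 13.16, 11.87, 11.88 and 12.92 in denervated 1 to 5, against 10.41, 11.11 and 9.98 in contralateral 1 to 3, 10.60 in the unoperated and 10.94 in the sham gland. It was the only one of the 16 probe sets whose groups did not overlap in the direction of higher denervated glands, a pattern held by 0.637% of all 6118 probe sets tested (1.03% had all denervated below all control glands, as none of the 16 did). The mean was 12.21 ± 0.81 in denervated and 10.61 ± 0.45 in control glands (SD, n = 5 each), a 3.03-fold higher level (log2 difference 1.60, SE 0.38). Denervated 1, the lowest denervated gland, was closest to the controls here too.

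Psmb8 encodes a catalytic subunit of the immunoproteasome. Its log2 intensities were 12.84, 13.49, 13.57, 13.53 and 13.36 in denervated 1 to 5, against 11.78, 12.60 and 12.46 in contralateral 1 to 3, 12.87 in the unoperated and 11.81 in the sham gland. Denervated 2 to 5 lay close together and above every control gland, and denervated 1 lay just under the unoperated one. The mean was 13.36 ± 0.30 in denervated and 12.30 ± 0.49 in control glands (SD, n = 5 each), a difference of 1.05 (SE 0.26), the smallest standard error of the 16 probe sets.

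Psmb9, another catalytic subunit of the immunoproteasome, had log2 intensities of 11.98, 11.83, 13.35, 12.59 and 11.84 in denervated 1 to 5, against 11.95, 12.43 and 11.31 in contralateral 1 to 3, 12.43 in the unoperated and 12.42 in the sham gland. The groups overlapped, and the difference of 0.21 (SE 0.34) was smaller than its standard error. The second Psmb9 probe set differed by 0.69 (SE 0.40), with 10.98 to 13.27 in denervated and 10.99 to 12.33 in control glands.

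Tap1, a subunit of the peptide transporter, had log2 intensities of 11.50, 11.39, 12.87, 12.19 and 10.84 in denervated 1 to 5, against 11.40, 11.87 and 11.14 in contralateral 1 to 3, 12.17 in the unoperated and 10.68 in the sham gland. The difference of 0.31 (SE 0.39) lay within the spread of the glands. The second Tap1 probe set, the brighter one in control glands (mean 11.53 against 11.45), had the other sign, at -0.36 (SE 0.34). The probe sets for Tap1 thus disagreed in sign, as they did for Irf7.

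B2m, the invariant light chain of class I molecules, had log2 intensities of 14.80, 16.01, 17.25, 17.11 and 16.32 in denervated 1 to 5, against 14.64, 16.52 and 16.33 in contralateral 1 to 3, 16.10 in the unoperated and 15.16 in the sham gland. The 3 glands of set A were the lowest 3 whatever their group, and denervated 3 and 4 were the highest. The mean difference was 0.55 (SE 0.47). A further probe set lists B2m together with 5 other genes and was not used.

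RT1-S3, a rat class I heavy chain, had log2 intensities of 13.57, 14.43, 15.31, 14.11 and 13.72 in denervated 1 to 5, against 13.36, 13.48 and 12.86 in contralateral 1 to 3, 13.96 in the unoperated and 13.51 in the sham gland. Denervated 2, 3 and 4 lay above every control gland. The mean was 14.23 ± 0.69 in denervated and 13.43 ± 0.39 in control glands (SD, n = 5 each), a difference of 0.80 (SE 0.32), and the 2 other probe sets each differed by 0.77 (SE 0.38 and 0.47). Class I heavy chains are near-identical paralogs, and the array may not separate RT1-S3 from its relatives.

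**Figure D1:**
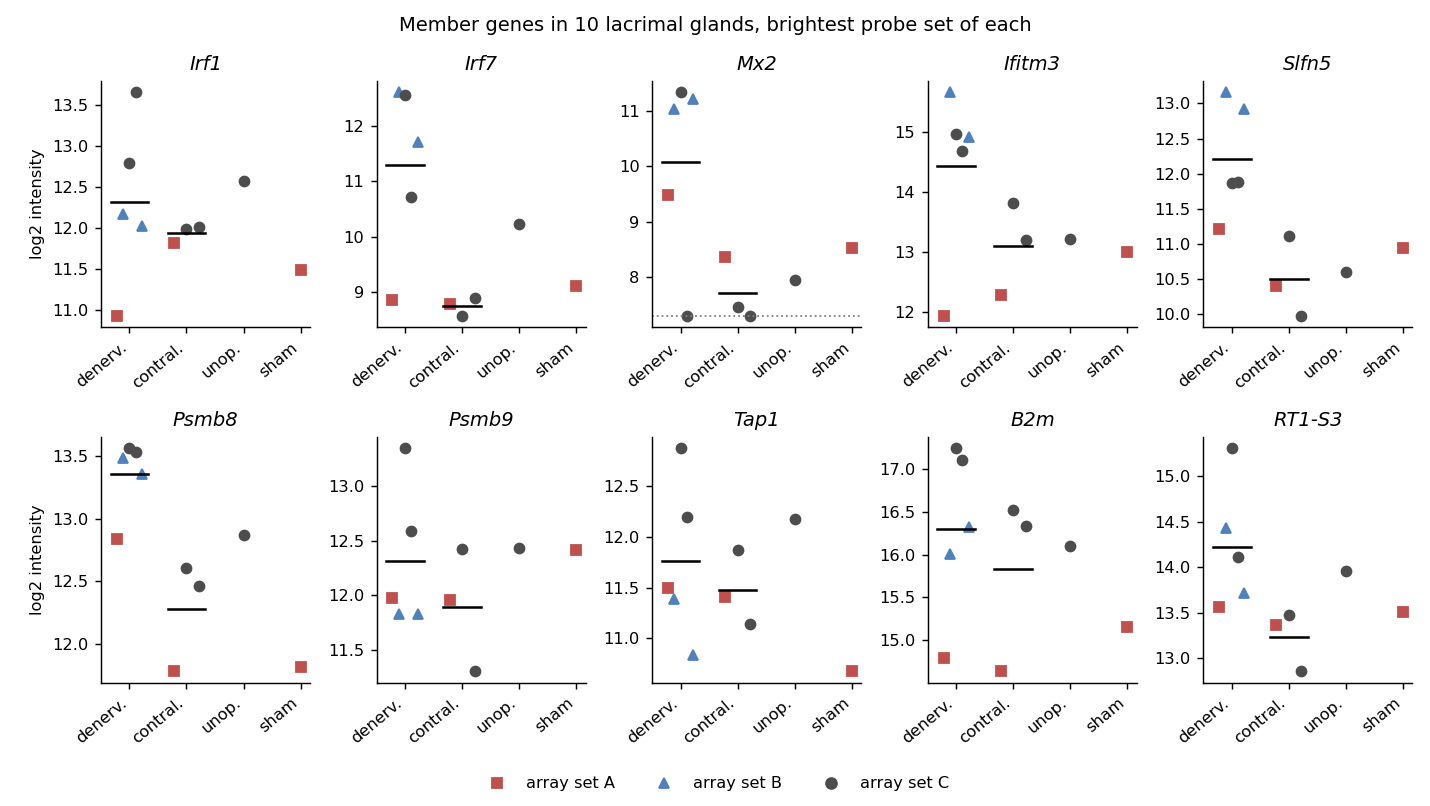
Log2 intensity (y axis, its own range in each panel) of the brightest probe set of each gene in the denervated, contralateral, unoperated and sham glands, 1 point per gland. Marker shape and colour give the array set, horizontal bars the mean of the denervated (n = 5) and of the contralateral glands (n = 3), and the dotted line in the Mx2 panel the floor of 7.29. Only in the Slfn5 panel do all denervated glands lie above all control glands, and denervated 1 (the square in the first column) is the lowest denervated gland for Irf1, Irf7, Ifitm3, Slfn5, Psmb8, B2m and RT1-S3.

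All 16 probe sets passed the filter on low values, which used the mean over all 10 glands. Mx2 passed it only through the denervated glands (mean 10.08), since its control mean of 7.91 lay under the filter's cut. Of the 16 probe sets, 14 were higher and 2 lower in denervated glands, where 44.6% of all probe sets tested had a difference above 0. In 4 of the 16, those of Irf7, Mx2, Ifitm3 and Psmb8, exactly 4 of the 5 denervated glands lay above all controls, as did 4.2% of all probe sets. With the brightest probe set of each gene, differences ran from 0.21 (Psmb9) to 2.17 (Irf7 and Mx2), with a median of 0.92, against -0.08 over all 3621 genes tested. Brightness was the mean over all 10 glands, which can favour probe sets that are high in denervated glands. The mean over a gene's probe sets gave a median of 0.85, and a filter at the 50th percentile, which left out Mx2, gave 0.80. These shares and medians describe genes chosen for being higher, and nothing is read from them. Of all 6118 probe sets, 0 passed an adjusted p of 0.05 in limma, and 592 (9.68%) had an unadjusted p under that value. Without denervated 1 the same test passed 66 probe sets, 45 higher and 21 lower. In bulk tissue, more cells of a type and more RNA per cell cannot be told apart.

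**Figure D2:**
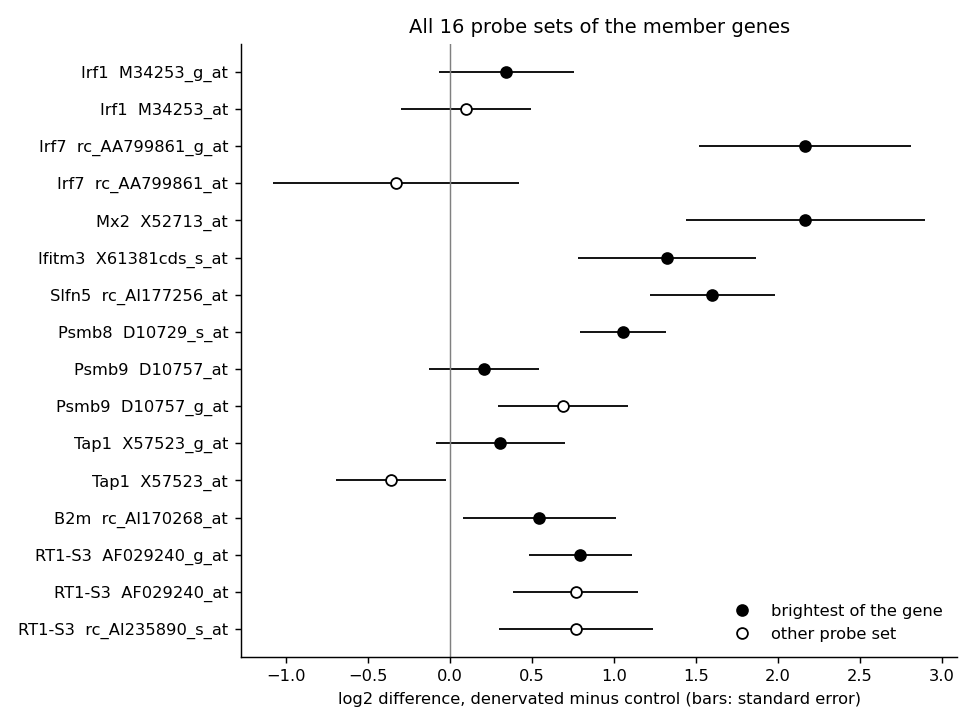
Log2 difference, denervated minus control glands (n = 5 each), for each of the 16 probe sets, with bars of 1 standard error on each side. Filled points are the brightest probe set of each gene. The Irf7 probe sets lie at 2.17 and -0.33 and those of Tap1 at 0.31 and -0.36, while the 3 probe sets of RT1-S3 lie between 0.77 and 0.80.

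The size of the difference varied by array set. The glands of each set are among those on which several of the genes were chosen as higher. The shares and medians within sets are therefore a description, and nothing is read from them. Within set C, the 2 denervated glands lay above all 3 control glands for 9 of the 10 genes, where 10.8% of all probe sets did so, the exception being Mx2, at the floor in denervated 4. The median difference within set C was 1.16, with Irf7 at 2.40, Mx2 at 1.76, Ifitm3 at 1.41 and Irf1 at 1.04. Within set A, the single denervated gland lay above both controls for 5 of the 10 genes, where 30.1% of all probe sets did so, with a median of 0.02. Psmb8 (1.05), Mx2 (1.06), Slfn5 (0.54), Tap1 (0.46) and RT1-S3 (0.13) were the 5 genes higher in that gland, while Irf1 (-0.72) and Ifitm3 (-0.71) were the lowest. Set B held no control gland and gave no difference. Without set A the median of the 10 genes over the remaining glands was 0.90, and without set B it was 0.75.

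**Figure D3:**
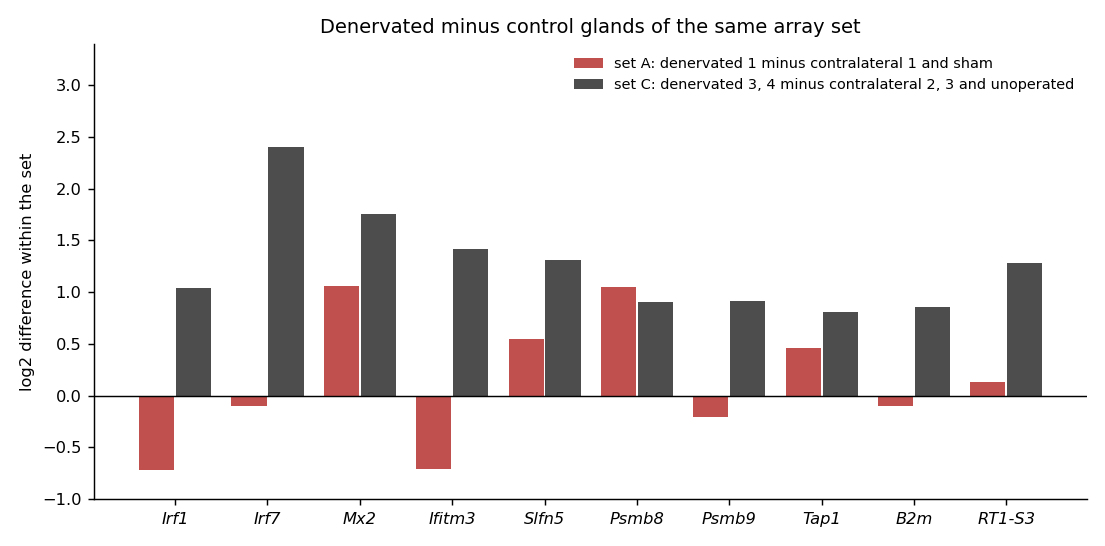
Log2 difference between denervated and control glands of the same array set, for set A (1 denervated, 2 control glands) and set C (2 denervated, 3 control glands), from the brightest probe set of each gene; there are no error bars because the sets hold 1 and 2 denervated glands. Set C bars are all above 0, with a median of 1.16, while set A bars lie on both sides of 0, with a median of 0.02.

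Denervated glands were also set against each kind of control gland. These comparisons share the denervated glands, so they are given side by side. For the brightest probe sets, the median difference of the 10 genes was 1.04 against the contralateral glands and 0.84 against the unoperated and sham glands. Irf7 differed by 2.54 and 1.61, Mx2 by 2.38 and 1.85, Slfn5 by 1.71 and 1.44, Ifitm3 by 1.33 and 1.32 and Psmb8 by 1.08 and 1.02, in that order. RT1-S3 differed by 1.00 and 0.49, B2m by 0.47 and 0.67, Irf1 by 0.38 and 0.29 and Tap1 by 0.29 and 0.33. The other RT1-S3 probe sets differed by 1.11 and 1.25 against contralateral glands. Against unoperated and sham glands those probe sets differed by only 0.26 and 0.05. Psmb9 had opposite signs, at 0.42 against contralateral and -0.11 against unoperated and sham glands.

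Contralateral glands were set against unoperated and sham glands, which asks whether glands opposite the cut nerve differed from glands without nerve section. The same glands were the controls when the genes were chosen, so this comparison is not independent of the choice and is given as a description. Differences of the 16 probe sets ran from -1.19 (SE 0.63, an RT1-S3 probe set) to 0.20 (SE 0.70, B2m). In limma 0 of 6118 probe sets passed an adjusted p of 0.05 and 4.89% had an unadjusted p under that value, 0 of the 16 among them. Of the 16 probe sets 14 were lower in contralateral glands, where 59.7% of all probe sets were. The median over the 10 genes was -0.18, against -0.14 over all genes tested, and scaling arrays to equal medians turned both, to 0.15 and 0.19. Irf7 had the lowest difference among the brightest probe sets, at -0.92 (SE 0.93), and was 10.24 in the unoperated gland against 9.12 in the sham gland. With 3 glands against 2, the standard errors of the 16 probe sets ran from 0.39 to 1.10.

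The other genes of the pathway came from lists written for this work, with 39 of 47 genes on the array passing the filter. In denervated glands 22 of them were higher and 17 lower, at a median difference of 0.25 (over all genes -0.08). That median was 0.05 without denervated 4 and 0.09 with the 3 array sets as a block. None passed limma's adjusted threshold of 0.05, also without denervated 1, and at an unadjusted p under 0.05 there were 4 higher and 2 lower genes, where 5.02% and 4.66% of all probe sets were called. Within set C the median of these genes was 0.34, and within set A it was -0.06. Their median for contralateral minus unoperated and sham glands was -0.27, against -0.14 over all genes.

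Upstream in the pathway, 3 interferon or receptor genes were tested. Ifnar1, a chain of the type I interferon receptor, differed by 0.78 (SE 0.59), with 2 control glands at the floor. The Ifnar1 difference was 1.28 against contralateral and 0.04 against unoperated and sham glands. Ifngr1, a chain of the interferon gamma receptor, differed by 0.06 (SE 0.25), and Ifnb1, interferon beta itself, by -0.88 (SE 0.61). Ifng was below the filter. Of 8 JAK-STAT genes and inhibitors 2 were higher and 6 lower, with a median of -0.22. Stat2, a signal transducer of type I interferons, differed by 0.26 (SE 0.39) and Stat3, another signal transducer, by 0.29 (SE 0.63). Stat3 was at the floor in 1 control gland. Jak1, a receptor-bound kinase, was at -0.25 (SE 0.27), Pias3, an inhibitor of STAT3, at -0.39 (SE 0.35) and Ptpn6, a phosphatase of blood cells, at -0.43 (SE 0.27), with its other probe set at 0.22.

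Among interferon regulatory factors, Irf8, a factor of myeloid cells, had a log2 intensity of 10.24 ± 0.76 in denervated and 8.69 ± 1.13 in control glands (SD, n = 5 each), a difference of 1.55 (SE 0.59, limma adjusted p = 0.451). The control mean of Irf8 included 1 gland at the floor. Its difference was 2.12 against contralateral and 0.70 against unoperated and sham glands. Irf3, the constitutive factor that starts interferon beta transcription, differed by 0.25 (SE 0.35). Of 11 interferon-induced effectors 6 were higher and 5 lower, with a median of 0.27. Mx1, the paralog of Mx2, differed by 1.62 (SE 0.74, limma adjusted p = 0.507), and its denervated and control means each included 1 gland at the floor. Slfn2, of the same family as Slfn5, differed by 1.52 (SE 0.58, limma adjusted p = 0.451), with all 5 denervated glands above all control glands. Contralateral 3 was at the floor for Slfn2, where the other control glands had 9.60 to 10.74. Cxcl10, a chemokine for activated T cells, differed by 1.30 (SE 0.61). It was at the floor in 2 control glands, and its control mean of 8.28 lay under the filter's cut. Against contralateral glands Mx1, Slfn2 and Cxcl10 differed by 1.87, 2.08 and 0.78. Against unoperated and sham glands they differed by 1.26, 0.68 and 2.08. Adar, an RNA-editing enzyme with an interferon-induced form, was at -0.48 (SE 0.42). Ifitm10 was at -0.51 (SE 0.56) and Gch1, an enzyme of tetrahydrobiopterin synthesis, at -0.96 (SE 0.84), its other tested probe sets lying at -0.14 and 0.20. Gch1 was at the floor in 1 denervated gland.

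Of 9 class I heavy chains and related genes 7 were higher and 2 lower, with a median of 0.37. Fcgrt, the neonatal Fc receptor, which pairs with beta-2-microglobulin, differed by 0.71 (SE 0.31, limma adjusted p = 0.480), RT1-A, a classical class I chain, by 0.63 (SE 0.32) and RT1-M5 by -0.72 (SE 0.35). Hfe, a class I-like regulator of iron uptake, was at 0.64 (SE 0.46), with its other probe set at -0.27, and Cd1d1, which presents lipids, at -0.49 (SE 0.30). The RT1-A probe set may also take signal from near-identical paralogs. Set against contralateral glands, Fcgrt, RT1-A and Hfe differed by 0.88, 0.61 and 1.01. Set against unoperated and sham glands, they differed by 0.45, 0.65 and 0.09. In the list of peptide supply and loading, Psme1 and Psme2, the subunits of the interferon-inducible proteasome activator, differed by 0.54 (SE 0.27) and 0.62 (SE 0.37), and Tap2, the partner of Tap1, by 0.63 (SE 0.64). The chaperones of class I folding had differences below 0 against all control glands together. Calr, calreticulin, had a log2 intensity of 15.74 ± 0.89 in denervated and 17.11 ± 0.76 in control glands (SD, n = 5 each), a difference of -1.37 (SE 0.43, limma adjusted p = 0.435), and Pdia3 differed by -0.66 (SE 0.28, limma adjusted p = 0.471). Both also serve the folding of secreted glycoproteins in general. Canx, calnexin, differed by -0.34 (SE 0.26), and its other probe sets ran from -0.67 to 0.30. Compared with contralateral glands alone, Calr, Pdia3 and Canx differed by -1.82, -0.92 and -0.64. Compared with unoperated and sham glands, they differed by -0.69, -0.27 and 0.09. Their differences were -0.20, -0.06 and 0.07 within set A and -1.20, -0.72 and -0.31 within set C.

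The constitutive proteasome was listed for comparison with Psmb8 and Psmb9. Of the standard catalytic subunits that immunoproteasome subunits replace, only Psmb5 was among the genes tested, at -0.23 (SE 0.21). The other genes of the list belong to the rest of the particle or its partners. Its 23 genes had a median of -0.07, with 9 higher and 14 lower. Psmb4 differed by 0.58 (SE 0.27), Psma4 by 0.51 (SE 0.25) and Psma7 by 0.66 (SE 0.33). The other Psma7 probe set was at 0.12 (SE 0.19), and the other Psmb4 probe sets were at 0.36 and 0.34. Psmd2 was at -0.38 (SE 0.25), Psmb2 at -0.27 (SE 0.19), and Psmd10, an assembly chaperone of the regulatory particle, at -1.53 (SE 0.61, limma adjusted p = 0.457), with 2 denervated glands at the floor. Psmb8 stood at 1.05 beside this list and Psmb9 at 0.21, a placing that was not tested because Psmb8 and Psmb9 were chosen on these samples.

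**Figure D4:**
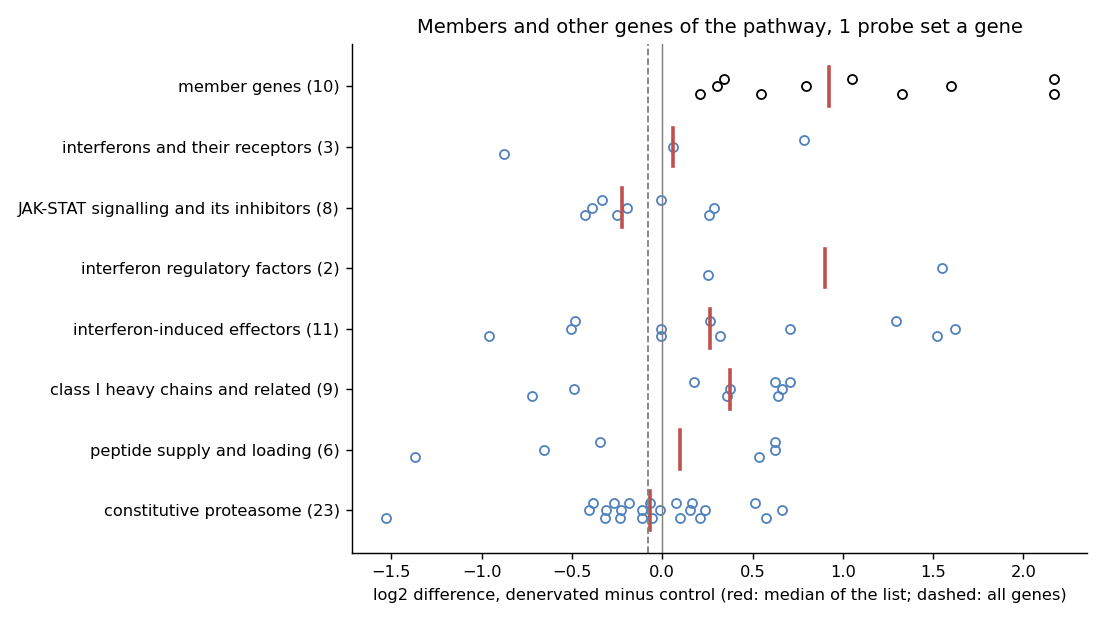
Log2 difference, denervated minus control glands, for the 10 genes and for the genes of each pathway list (1 point per gene, its brightest probe set; number of genes in parentheses). Red bars are medians of the lists, the dashed line the median over all genes. The 10 genes, which were chosen partly for being higher, have a median of 0.92, and the list medians run from -0.22 (JAK-STAT signalling) to 0.90 (2 interferon regulatory factors), with the constitutive proteasome at -0.07.

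To set immune cell markers beside the 10 genes, each gland was given a score, the mean over the 10 genes of the log2 intensity minus the gene's mean over all glands. It was -0.59, 0.88, 1.29, 0.47 and 0.58 in denervated 1 to 5, against -0.82, -0.32 and -0.75 in contralateral 1 to 3, -0.09 in the unoperated and -0.64 in the sham gland. Denervated 2 to 5 had the highest 4 scores, and denervated 1 lay with the other glands of set A. This order is a description, since several of the genes were chosen for being higher in denervated glands.

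Of 8 macrophage and monocyte markers tested 7 were higher in denervated glands, with a median of 0.41. The summed linear intensity of the 9 on the array, which the brightest genes weigh on most, ran from 50610 to 80324 in denervated glands. In control glands it ran from 36281 to 59162. C1qb, a complement component made by macrophages, differed by 1.01 (SE 0.39), Cd74, the class II invariant chain, by 0.61 (SE 0.28) and Lyz2, a lysozyme, by 0.51 (SE 0.28). Of 5 markers of all leukocytes 3 were higher, with a median of 0.78 and sums of 4825 to 8525 in denervated and 2266 to 5944 in control glands. Coro1a, the highest at 2.33 (SE 0.66), was at the floor in 2 control glands. Its control mean of 8.28 lay under the filter's cut, so it passed only through the denervated glands. Cd52, at -0.64 (SE 0.67), had a denervated mean of 8.23, also under the cut. Cd53, a leukocyte tetraspanin, differed by 1.20 (SE 0.38, limma adjusted p = 0.435), Cd37, another tetraspanin, by 0.78 (SE 0.49), whereas Ptprc, the common leukocyte antigen, was at -0.24 (SE 0.69). The sums of both lists overlapped between the groups, and their part in the result of the 10 genes was not tested.

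T and natural killer cell markers were mostly lower. Of 10 tested, 2 were higher and 8 lower, with a median of -0.39. The 2 higher, Cd8a and Cd247, had control means of 8.18 and 8.03, under the filter's cut. Cd247 was at the floor in 3 control glands, and Cd8a in 2 denervated and 1 control gland. Gzmb, among the lower, had a denervated mean of 8.22, also under the cut. Sums over the 14 on the array were 9112 to 18846 in denervated and 10000 to 23271 in control glands. Of these 14, Cd3d and Prf1 were at the floor in at least 5 glands. Within array sets the median of this list was -0.07 in set A and 0.06 in set C, so the lower direction was not seen in set C. Within the same sets the macrophage median was -0.02 and 0.48, and the leukocyte median -0.04 and 0.89. Cd3g, a chain of the T cell receptor complex, differed by -1.01 (SE 0.54), Lck, a T cell kinase, by -0.02 (SE 0.40) and Cd4, a T cell coreceptor, by -0.52 (SE 0.58). Of the B and plasma cell markers 1 was on the array, below the filter. The 2 dendritic cell markers tested had a median of 0.30 (Tcf4 0.31, Cd86 0.28) and the 4 endothelial ones -0.38 (Kdr -0.29, Vwf -1.27 and Pecam1 -0.48 among them). Of the 8 lacrimal markers tested 5 were higher and 3 lower, with Dmbt1, a mucosal scavenger receptor, at 1.53 (SE 0.36), Aqp5, a water channel of secretory epithelium, at 0.23 (SE 0.33) and Rab3d, a protein of secretory granules, at -0.53 (SE 0.26).

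**Figure D5:**
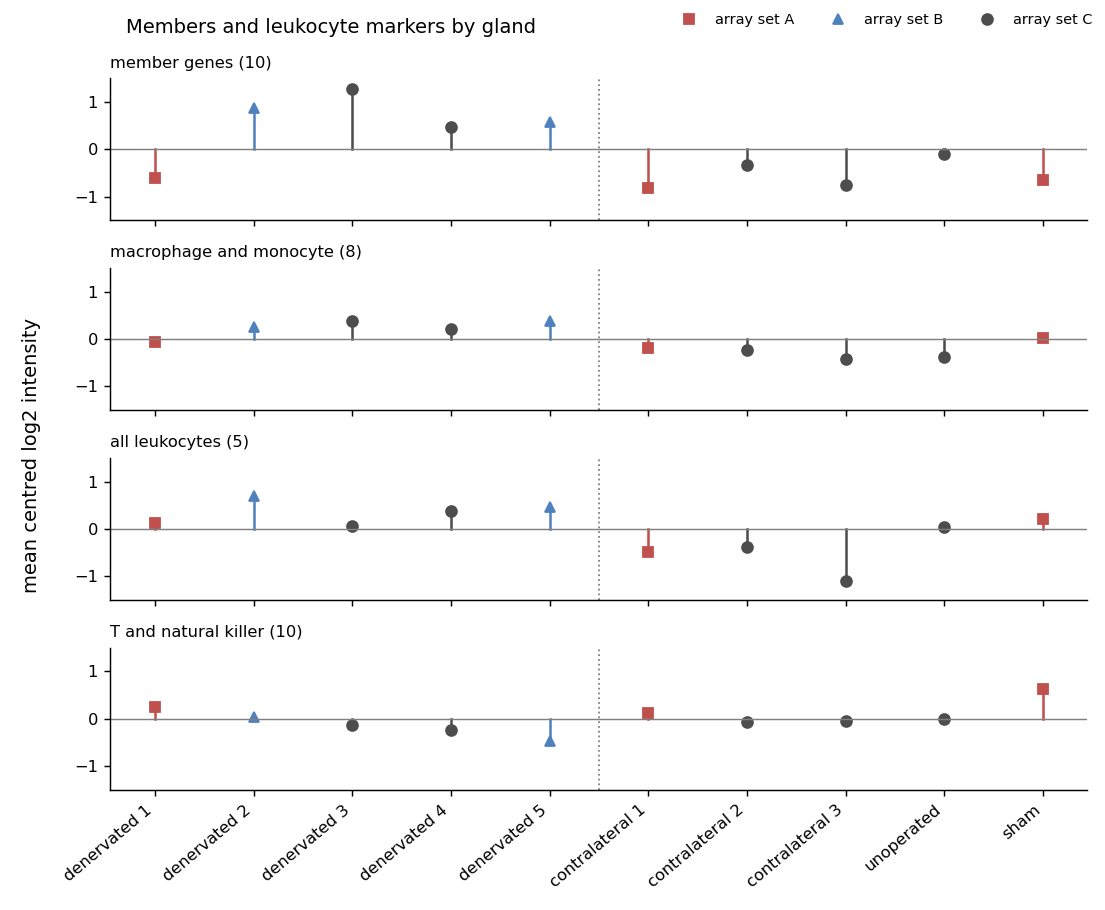
Mean log2 intensity, centred on each gene's mean over the 10 glands, of the 10 genes and of 3 lists of immune cell markers (number of genes in parentheses), by gland, with denervated glands left of the dotted line. Marker shape and colour give the array set. The score of the 10 genes is highest in denervated 3 (1.29) and negative in denervated 1 (-0.59), and the T and natural killer list is highest in the sham gland (0.63).

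Outside the pathway lists, the genes whose log2 intensities were most like the score of the 10 genes over the 10 glands were Hnrnpf, an RNA-binding protein (Pearson r = 0.932), Crispld2, a secreted protein (0.904), RT1-Db1, a class II MHC beta chain (0.903), Lgals3bp, a secreted glycoprotein (0.900), Ezr, the cytoskeletal linker ezrin (0.895), Cd74 (0.895), C1qb (0.891) and Cd53 (0.883). Hnrnpf had log2 intensities of 12.62, 13.07, 13.14, 13.04 and 13.03 in denervated 1 to 5, against 12.06, 12.62 and 12.36 in contralateral 1 to 3, 12.70 in the unoperated and 12.40 in the sham gland. Without set A (n = 7) its r was 0.966, and those of the other 7 genes ran from 0.823 to 0.928. These correlations are a description: they were picked as the highest of many, and the points share arrays, groups and array sets.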

How the data were processed

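Per the labels, RNA of 10 glands was measured on 1 array each. The authors deposited linear intensities per probe set, already scaled: array means with 2% trimmed at each end ran from 2505 to 2507. The sources used here do not give the software, its version or detection calls. The scaling was kept, intensities were floored at the 20th percentile (156.2), log2 was taken, and of 8740 probe sets without the 59 controls the 6118 with a mean above the 30th percentile were tested. Median array intensity ran from 554 to 979, and the number of arrays limits precision: the median standard error was 0.50. Symbols came from the platform annotation, sequences and positions from RefSeq (GRCr8).

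Tests were limma 3.58.1 in R 4.3.3 (lmFit, eBayes with trend, two-sided, Benjamini-Hochberg over all tested probe sets), with 2 classes of glands for denervated against control and 3 for contralateral against unoperated and sham, and the steps were checked on simulated data. A gene was represented by its brightest probe set, and set differences are plain means. Members and lists were chosen with earlier results of these data known. Named from each list were up to 3 genes of smallest p in each direction, or the 3 brightest markers, and the 8 genes outside the pathway lists most correlated with the score. Alternatives were other scalings, floors and filters, no trend, array weights, probe set means, a replicate block, array sets (added after the data were seen) and leaving out each gland. A separate check of pairing, not on the scale of the array correlations above, gave correlations of 0.488, 0.0369 and 0.164 for same-numbered contralateral and denervated glands. Number 1 lies within set A, and contralateral 2 matched denervated 3 best, so the numbers were not taken as pairs. Figures used matplotlib 3.10.9.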

Additional observations from a re-analysis of the deposited data

Results flagged for a closer look

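In 2 of the 16 probe sets, denervated 1 stood apart from the other denervated glands by a gap larger than 0.71 of the group's range, Dixon's critical value for 5 values. For Ifitm3 its log2 intensity was 11.94, with the nearest denervated gland at 14.69 (a gap of 0.739 of the range). For Psmb8 it was 12.84, with the nearest at 13.36 (0.717 of the range). Chance marks about 1 in 20 such groups. Denervated 1 shares array set A with contralateral 1 and sham. Ifitm3 was at 12.29 and 13.01 in those control glands, both above denervated 1, and Psmb8 at 11.78 and 11.81, both below it.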

How the results depend on the processing

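The median difference of the 10 genes between denervated and control glands (0.92) stayed above 0 under every alternative run, from 0.75 without array set B to 1.07 without denervated 1. Leaving out single glands gave 0.76 to 1.07. Several of the genes were chosen for being higher in this same contrast, so its sign was largely fixed in advance. The values show only how far its size moved. It was 0.91 with quantile normalization and 1.05 with median scaling, and all 10 genes were higher under each of the 3 scalings; the median over all genes moved with them, from -0.08 to -0.04 and 0.04. The replicate block used only denervated 1 to 3 and contralateral 1 to 3 and left out the other glands. It gave 1.05 and left the count of probe sets past the threshold at 0. It turned the sign of the second probe sets of Tap1 (0.25), Irf7 (0.45) and Irf1 (-0.25). In the check of pairing, contralateral 1 and 3 correlated best with the denervated gland of their own number and contralateral 2 did not. Single differences had an opposite sign in 9 of 351 values, in 4 probe sets of Psmb9, Irf7, Irf1 and Tap1.

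The count of probe sets past the threshold for denervated against control (0) was 1 with the 3 array sets as a block and ran from 0 to 66 when single glands were left out. For contralateral against unoperated and sham (0) it was 7 with no filter and ran from 0 to 1, the 1 being without the unoperated gland. The median of the other pathway genes (0.25) was 0.089 with the array sets as a block and ran from 0.049 to 0.30 when single glands were left out, and the contralateral median of the 10 genes (-0.18) from -0.57 to -0.09.

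Signs of contralateral differences changed in 8 probe sets, with none past the threshold. Median scaling turned Irf1 (0.23 and 0.078), Psmb8 (0.27), Ifitm3 (0.32) and Slfn5 (0.060), quantile normalization turned Irf1 (0.0059), and array weights turned Psmb8 (0.070) and Ifitm3 (0.23). Leaving out single glands gave ranges of -0.59 to 0.47 for Psmb8, -0.89 to 0.10 for the second Psmb9 probe set, -0.64 to 0.45 for Irf1, -0.37 to 0.40 for Ifitm3, -0.70 to 0.80 for Tap1 and -0.27 to 0.80 for B2m. The cause of these changes was not tested. With a filter at the 50th percentile Mx2 was not tested. Depth in the sense of signal over background could not be judged without detection calls, and Mx2 lay near the floor in control glands.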
